A study of Mus musculus with 16 samples.

Results

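Constant intragenic MyoD regions in acetylated chromatin are places inside genes where the myogenic transcription factor MyoD was bound in every MyoD library of the series and where the surrounding chromatin carried the active mark H3K27ac in every H3K27ac library. Peaks of the 4 MyoD lists were merged wherever they overlapped or touched on chromosomes 1 to 19 and X. A merged region was kept when it held a peak of all 4 lists, overlapped a protein-coding gene body, lay more than 1 kb from any annotated gene end, and overlapped a merged H3K27ac region that held a peak of all 4 H3K27ac lists. These rules kept 3790 members of 24264 MyoD regions, that is 15.6% of all regions and 38.2% of the 9909 regions present in all 4 libraries. The members were chosen by the peak calls of these same libraries, so presence in every library and overlap with H3K27ac are descriptions here and not results.

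Satellite cells, which are muscle stem cells, had been taken from the hindlimb of C57BL/6 mice and grown in culture; no ages are given. LncMyoD-KD cells carried a knockdown of LncMyoD, a long noncoding RNA, after 48 h with small interfering RNA, and were set against control (Ctrl) cells. The treatment text of the labels is the same for all samples, so a library is called control from its title and genotype label, and no source used here says what was given to control cells. Each group had 2 MyoD and 2 H3K27ac chromatin immunoprecipitation libraries, prepared by tagmenting the bound chromatin, and 8 further input libraries were not analysed here. Nothing in the labels tells whether the 2 replicates of a group are separate cultures or animals, so p-values measure only the spread between these samples, which may be technical. No RNA was measured, so the depletion of LncMyoD was not checked. The MyoD lists held 13069 to 17724 peaks on these chromosomes and the H3K27ac lists 39934 to 54008, with the LncMyoD-KD 2 library the shortest for either antibody. Because the lists hold no read counts, the depth is unknown.

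MyoD is a basic helix-loop-helix protein that binds DNA as a dimer with E-proteins at the E-box, a short palindromic motif spelled CANNTG, and its preferred version is CAGCTG. A close next choice is CAGGTG. On the opposite strand that reads CACCTG, and these 3 spellings are called preferred E-boxes here. MyoD starts and maintains the muscle programme by recruiting acetyltransferases and remodelling enzymes, and many of its sites lie in introns and between genes. H3K27ac is acetylation of lysine 27 of histone H3, a mark carried by the nucleosomes beside active enhancers and promoters, while the bound factor itself occupies a stretch with few nucleosomes.

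The MyoD summit of a member was taken as the median position, over the 4 libraries, of the base of highest signal. Over all members the outermost of the 4 bases lay a median of 79 bp apart, and within 50 bp at 22.3% of members. Sequence under a member could be read where the MyoD summit fell inside a promoter window of the RefSeq table (build GRCm38.p6). Such a window spans 250 bases before to 50 bases after an annotated start site. Since all members lie more than 1 kb from gene ends, such windows belong to alternative start sites inside a gene. Of the 3790 members, 86 (2.27%) overlapped a window and 52 had their summit in one. The 7 of these with the highest MyoD enrichment are shown, to let the E-boxes be seen in place. They are Slc44a2 (chr9:21337578-21337877, plus strand), Jmjd1c (chr10:67185500-67185799, plus strand), Cbx5 (chr15:103215303-103215602, minus strand), Synpo2l (chr14:20664525-20664824, minus strand), Fam78a (chr2:32064862-32065161, minus strand), Cenpj (chr14:56571797-56572096, minus strand), Adam19 (chr11:46127654-46127953, plus strand). Each is written 5′ to 3′ on the strand of its start site, with every CANNTG in capitals.
Slc44a2: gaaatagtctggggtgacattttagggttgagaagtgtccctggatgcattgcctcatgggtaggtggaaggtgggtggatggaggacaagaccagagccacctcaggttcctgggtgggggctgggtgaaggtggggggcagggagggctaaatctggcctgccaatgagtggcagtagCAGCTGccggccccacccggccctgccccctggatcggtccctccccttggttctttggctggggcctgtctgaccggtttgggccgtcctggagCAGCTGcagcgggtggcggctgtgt
Jmjd1c: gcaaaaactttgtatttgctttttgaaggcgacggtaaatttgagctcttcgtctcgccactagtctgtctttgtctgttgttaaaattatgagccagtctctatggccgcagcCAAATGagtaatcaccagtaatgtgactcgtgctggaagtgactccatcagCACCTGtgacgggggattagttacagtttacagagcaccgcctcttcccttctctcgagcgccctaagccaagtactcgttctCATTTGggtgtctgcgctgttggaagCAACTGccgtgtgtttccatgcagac
Cbx5: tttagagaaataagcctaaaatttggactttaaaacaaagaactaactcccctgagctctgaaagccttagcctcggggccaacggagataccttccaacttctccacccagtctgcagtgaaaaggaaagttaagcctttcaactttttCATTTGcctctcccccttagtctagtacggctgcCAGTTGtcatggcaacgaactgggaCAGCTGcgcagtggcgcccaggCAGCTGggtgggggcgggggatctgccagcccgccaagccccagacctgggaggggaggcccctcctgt
Synpo2l: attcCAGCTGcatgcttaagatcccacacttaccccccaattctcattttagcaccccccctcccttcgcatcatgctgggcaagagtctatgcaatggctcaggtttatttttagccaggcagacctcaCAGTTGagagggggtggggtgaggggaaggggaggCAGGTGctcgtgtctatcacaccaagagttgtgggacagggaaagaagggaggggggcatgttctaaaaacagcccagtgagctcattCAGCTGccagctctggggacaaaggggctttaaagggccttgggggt
Fam78a: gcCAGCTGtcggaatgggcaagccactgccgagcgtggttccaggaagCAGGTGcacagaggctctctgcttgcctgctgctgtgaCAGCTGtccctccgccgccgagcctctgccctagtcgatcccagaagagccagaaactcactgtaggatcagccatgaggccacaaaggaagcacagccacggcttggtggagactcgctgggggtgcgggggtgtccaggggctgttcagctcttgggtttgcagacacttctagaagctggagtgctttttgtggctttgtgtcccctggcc
Cenpj: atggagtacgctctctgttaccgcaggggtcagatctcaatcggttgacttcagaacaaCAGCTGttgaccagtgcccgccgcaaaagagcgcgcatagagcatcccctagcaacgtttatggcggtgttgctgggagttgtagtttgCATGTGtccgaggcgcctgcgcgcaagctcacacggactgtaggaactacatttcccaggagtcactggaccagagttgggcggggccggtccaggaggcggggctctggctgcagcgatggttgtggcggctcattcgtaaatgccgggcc
Adam19: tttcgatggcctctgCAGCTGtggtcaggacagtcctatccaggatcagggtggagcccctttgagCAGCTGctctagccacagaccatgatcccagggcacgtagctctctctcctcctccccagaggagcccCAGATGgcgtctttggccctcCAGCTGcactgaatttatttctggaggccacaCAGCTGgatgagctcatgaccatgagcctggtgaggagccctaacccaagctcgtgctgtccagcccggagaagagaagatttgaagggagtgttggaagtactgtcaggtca

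Slc44a2 encodes a choline transporter-like protein, Jmjd1c a histone demethylase-family protein, Cbx5 the heterochromatin protein HP1 alpha, Synpo2l a Z-disc protein of striated muscle, Cenpj a centriole protein and Adam19 a membrane metalloprotease. In the Synpo2l window the summit was at base 169, counted from 1 at the 5′ end, and the centre of a CAGGTG lay 0.5 bp from it. The Synpo2l member had MyoD fold enrichments of 15.1 and 12.9 in the LncMyoD-KD libraries, against 18.5 and 13.2 in the Ctrl libraries. In the Cbx5 window the summit, at base 206, was 6.5 bp from the centre of the nearest CAGCTG. The Slc44a2 member had the highest enrichment of the 7, with 22.5 and 19.6 in the LncMyoD-KD libraries and 22.5 and 17.2 in the Ctrl libraries. The groups overlapped at each of these 2 members. The Adam19 window held 4 copies of CAGCTG, the nearest 19.5 bp from its summit.

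All 52 windows held a preferred E-box, and CAGCTG was in 75% of them; every motif was searched on both strands. Among the 3636 windows at internal start sites with no MyoD region, 32.8% held one of these 3 spellings and 16.4% held CAGCTG. Restricting those to the 1122 windows inside constant H3K27ac regions gave 25.8% and 12.7%. Over all 21045 windows the shares were 32.2% and 15.7%, and over 627 windows that overlapped a constant MyoD region within 1 kb of a gene end they were 64.3% and 47.7%. Those 627 windows needed only to overlap a MyoD region, while the 52 had to hold the summit. The shares of the 52 and the 627 are therefore not like for like. The median share of G and C was 59.3% in the 52 windows, 54.3% in the internal windows without MyoD and 61.7% in the acetylated ones. The window search was chosen after the data were seen, it covers few of the members, and a motif match is a description, not a shown binding site.

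The preferred E-boxes crowded at the summit. In 45 of the 52 windows the centre of a preferred E-box was within 50 bp of the summit, and the median distance was 22.5 bp. This is less than the median of 79 bp between the outermost summits of the 4 libraries over all members. Per kb of window, there were 11.0 preferred E-boxes within 50 bp of the summit, 3.46 at 50 to 100 bp and 1.83 further out. Other CANNTG spellings, counted apart from the preferred ones, stood at 3.6, 3.95 and 3.20 per kb over the same distances. For other factors of active muscle chromatin the shares were close to those of all windows or moderately above. The AP-1 motif TGANTCA was in 11.5% of the 52 and 7.04% of all windows, the TEAD motif CATTCC or GGAATG in 21.2% and 13.5%, and the RUNX motif TGTGGT or ACCACA in 13.5% and 14.7%.

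**Figure D1:**
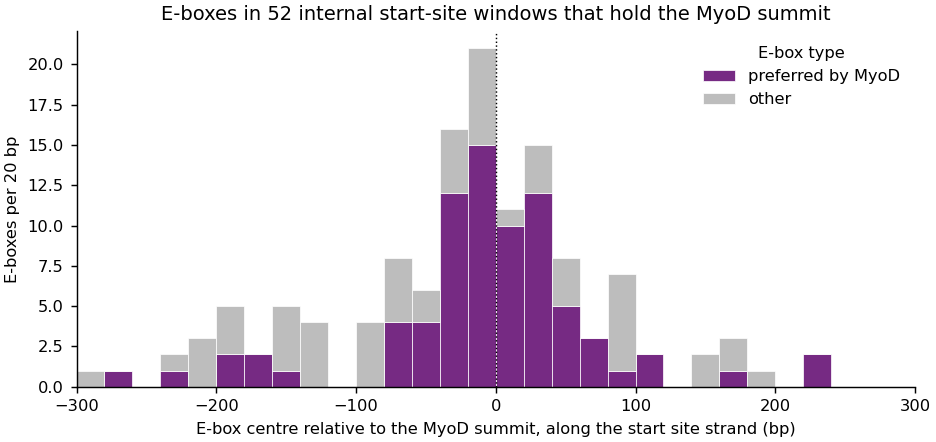
Positions of E-boxes in the 52 internal start-site windows that hold the MyoD summit of a member, as the number of E-box centres per 20 bp (vertical axis) by distance from the summit in bp (horizontal axis), with the spellings preferred by MyoD and the other CANNTG spellings stacked. Preferred E-boxes pile up around 0 (median distance 22.5 bp), while the other spellings are spread over the window.

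The hairpins of 4 microRNAs overlapped a member, and 5 of their mature sequences from RefSeq are shown with the seed, bases 2 to 8, in capitals, because the Mir1968 hairpin carries a preferred E-box in its own DNA.
mmu-miR-1968-5p: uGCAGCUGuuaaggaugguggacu
mmu-miR-1968-3p: aCCACCUCugcagcuguuaag
mmu-miR-7689-5p: cCGAGGCAgccuggcuuag
mmu-miR-5620-5p: aCGAGGCAggggcuuugacugug
mmu-miR-26a-5p: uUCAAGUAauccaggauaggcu
At the Mir1968 hairpin in Grtp1 (chr8:13189031-13189098, minus strand, GRCm38.p6) the MyoD summit lay inside the hairpin, at base 13189065, and the 5p seed GCAGCUG spells CAGCTG in DNA. The fold enrichment there was 8.10 and 8.62 in the LncMyoD-KD libraries, against 8.26 and 7.24 in the Ctrl libraries, so the groups overlapped. miR-7689-5p in Sorcs2 and miR-5620-5p in Clcn4 share the seed CGAGGCA. The member at Mir7689 had MyoD folds of 14.4 and 10.6 in the LncMyoD-KD libraries and 17.5 and 15.6 in the Ctrl libraries. The member at Mir5620 had 5.16 and 7.05 in the LncMyoD-KD libraries and 10.4 and 9.94 in the Ctrl libraries. At both, the LncMyoD-KD folds were below the Ctrl folds. By rank of fold within each library, 15.9% of all constant MyoD regions were lower in both LncMyoD-KD libraries than in both Ctrl libraries. Mir26a-1, inside its host Ctdspl, was reached by the edge of a member whose enrichment was 5.53 and 11.4 in the LncMyoD-KD libraries and 6.94 and 6.95 in the Ctrl libraries. The LncMyoD-KD libraries were the lowest and the highest of the 4 at that member.

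The overlap went beyond the 1 shared base that the rule asks for. Of the members, 90.5% lay wholly inside H3K27ac regions merged over the 4 libraries, and 96.1% had at least 50% of their length inside. Cover in each single library was lower. An H3K27ac peak lay over the MyoD summit in all 4 libraries at 2438 members (64.3%) and in none at 150 (3.96%). Members were 265 to 2896 bp wide, with a median of 524 bp. They sat in 3445 H3K27ac regions, of which 3159 held 1 member, 238 held 2 and 48 held 3 or more. The H3K27ac region that held a member itself reached a gene end at 366 members (9.66%). All 15 satellite cell and myoblast marker genes, among them Pax7, Myf5, Myod1 and Myog, had H3K27ac at a gene end in all 4 libraries. Over all protein-coding genes the share was 44.2%. Of 15 genes in each list of other cells, 2 endothelial, 4 fibro-adipogenic, 3 immune, 6 smooth muscle or pericyte and 3 Schwann or neural markers had it. Des is in both the myoblast and the smooth muscle list. The lists were chosen with earlier results of these data known, so these counts are a description.

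The share of intragenic MyoD regions in constant H3K27ac rose with the number of MyoD libraries and with fold rank. The rule itself uses the number of libraries and the overlap, so these shares are a description. An overlap needs only 1 shared base, and the part of region width was not tested. Of intragenic MyoD regions seen in 1 library, 37.7% overlapped a constant H3K27ac region, and the share was 51.3%, 61.6% and 78.1% for those seen in 2, 3 and 4 libraries. The last of these is the member set, 3790 of 4855 regions. Intergenic regions ran from 18% to 71.1% over the same series, and regions near gene ends from 70.3% to 85.2%. Within the constant intragenic regions, the share was 64.9% in the lowest fold-rank quintile and 91.9% in the highest. 

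MyoD enrichment at members was near that of intergenic acetylated sites and above that of intragenic regions without any H3K27ac peak and of regions near gene ends. Fold enrichment is the value that the authors' peak caller gave at a peak, and the strongest peak of a region was used in each library. The median fold of members was 9.28 and 8.23 in the LncMyoD-KD libraries and 9.25 and 8.94 in the Ctrl libraries. At 470 constant intragenic regions without any H3K27ac peak it was 7.0 and 6.66 in the LncMyoD-KD libraries and 7.27 and 7.29 in the Ctrl libraries. Members were thus 1.26-fold higher as the mean over libraries, higher in 4 of 4 (two-sided exact sign permutation test over libraries, p = 0.125, the smallest that 4 libraries allow). Against 1318 constant regions within 1 kb of a gene end, with medians of 8.10 and 7.45 in LncMyoD-KD and 8.59 and 8.28 in Ctrl libraries, members were 1.10-fold higher, again in 4 of 4 (exact p = 0.125). These gene-end regions were taken with or without H3K27ac, and 1123 of them (85.2%) overlapped a constant H3K27ac region. Against 2658 constant intergenic regions in acetylated chromatin the mean log2 difference was -0.04 (exact p = 0.25). These 3 comparisons could not reach 0.05 in this design.

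**Figure D2:**
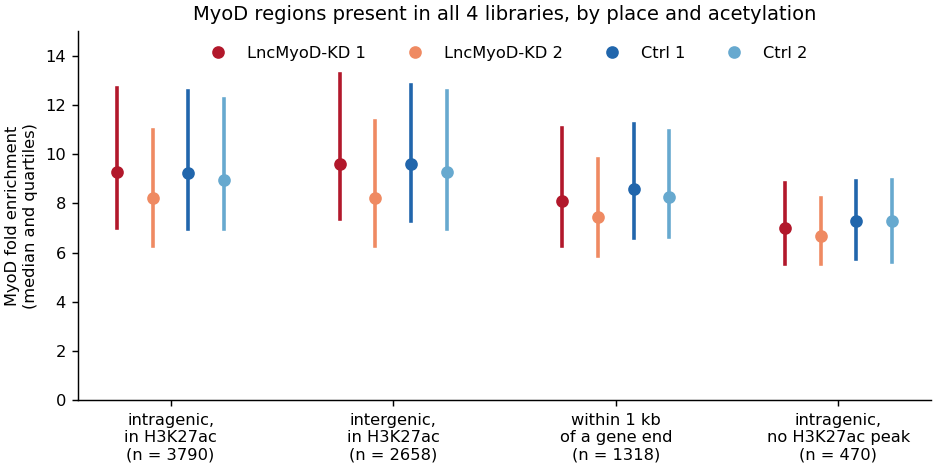
MyoD fold enrichment (vertical axis, as given by the authors' peak caller) of MyoD regions present in all 4 libraries, by place and acetylation, with the median as a point and the quartiles as a line for each LncMyoD-KD and Ctrl library. Members, on the left, have medians of 8.23 to 9.28, and intragenic regions without any H3K27ac peak, on the right, of 6.66 to 7.29.

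The acetylation of gene bodies was also stronger where a member was present. Of 10355 constant H3K27ac regions inside genes, 3176 (30.7%) held a member and 5134 held no MyoD peak of any library. The median H3K27ac fold enrichment of those with a member was 9.82 and 8.54 in the LncMyoD-KD libraries and 8.55 and 10.1 in the Ctrl libraries. Those without MyoD had 6.19 and 5.48 in the LncMyoD-KD libraries and 5.02 and 6.21 in the Ctrl libraries. The ratio was 1.62, in the same direction in 4 of 4 libraries (two-sided exact sign permutation test, p = 0.125, the smallest possible). Regions with a member were wider, with a median of 2224 bp against 1475 bp. Within regions of 1 to 3 kb the log2 difference was 0.42, against 0.69 over all widths. Over the members, MyoD and H3K27ac mean ranks had a Spearman correlation of 0.25 (n = 3790 members, as a description; the 2 marks were read in separate libraries of the same cells).

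H3K27ac summits lay at a distance from the MyoD summits, a feature that the rule did not use. The median distance from the MyoD summit of a member to the nearest H3K27ac summit was 309 and 315.5 bp in the LncMyoD-KD libraries, against 307 and 311.5 bp in the Ctrl libraries. Between 61.1% and 64.6% of distances were 200 to 500 bp, and 3.51% to 4.43% were under 100 bp. Within 600 bp of the MyoD summit, H3K27ac summits stood on 1 side only at 76.5% and 68.9% of members in the LncMyoD-KD libraries and at 74.2% and 74.6% in the Ctrl libraries. They stood on both sides at 8.39% and 18.5% of members in the LncMyoD-KD libraries and at 12.4% and 10.1% in the Ctrl libraries. Each deposited peak has 1 summit, so a single peak over the MyoD summit gives a summit on 1 side only. The share with both sides followed the share of MyoD summits under no H3K27ac peak. That share was 8.68% and 31.6% in the LncMyoD-KD libraries and 17.0% and 12.7% in the Ctrl libraries. The side of a summit is thus no measure of which sides were acetylated. The means of the groups differed by 2.88 bp (two-sided exact permutation test over 6 assignments, p = 0.667; the smallest possible p is 0.333), and leaving out the H3K27ac library LncMyoD-KD 2 turned the difference to -2.50 bp. H3K27ac peaks covered the MyoD summit itself less often than positions 300 bp away. The summit was covered at 91.3% and 68.4% of members in the LncMyoD-KD libraries and at 82.98% and 87.3% in the Ctrl libraries. At 300 bp to its right 95.6% and 85.7% were covered in the LncMyoD-KD libraries and 92.1% and 93.7% in the Ctrl libraries. At 300 bp to its left these shares were 95.5% and 86.3% in the LncMyoD-KD libraries and 92.1% and 93.7% in the Ctrl libraries. The covered share at the summit followed the number of H3K27ac peaks in the list, from 39934 in LncMyoD-KD 2 to 54008 in LncMyoD-KD 1, and the part of list length in it was not tested. Intergenic acetylated MyoD regions had a like spacing, with medians of 295.2 and 308 bp in the LncMyoD-KD libraries and 302 and 303.5 bp in the Ctrl libraries.

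**Figure D3:**
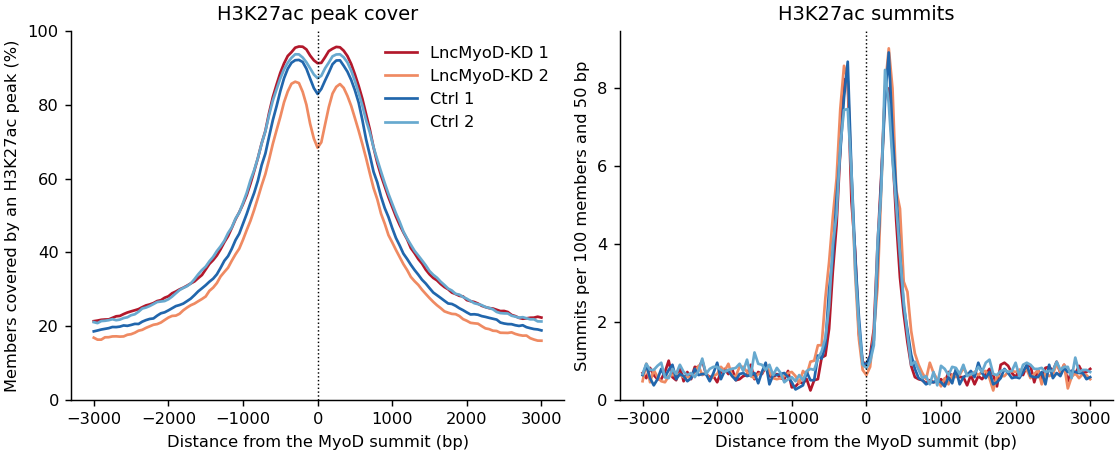
H3K27ac around the MyoD summit of the 3790 members, in each LncMyoD-KD and Ctrl library: on the left the percentage of members covered by an H3K27ac peak, on the right H3K27ac summits per 100 members in each 50 bp step, both by distance from the MyoD summit in bp. Peak cover dips at the MyoD summit in all 4 libraries. H3K27ac summits, added up over members, form a peak on either side at about 300 bp. Each deposited peak has 1 summit, so a single peak over the MyoD summit gives a summit on 1 side only.

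The members with the strongest MyoD signal lay in genes of varied roles. The strongest, in Olfml2b (chr1:170655290-170656393, mm10), a gene for a secreted olfactomedin-domain protein, had fold enrichments of 49.4 and 43.9 in the LncMyoD-KD libraries and 48.2 and 46.7 in the Ctrl libraries. It shared a 12.5 kb H3K27ac region with 3 other members. The next, in the axonemal dynein gene Dnah2 (chr11:69459359-69460630), had 47.2 and 45.8 in the LncMyoD-KD libraries and 37.5 and 52.3 in the Ctrl libraries. At neither were the groups apart. Strong MyoD signal also stood in weakly acetylated chromatin. The member in Jade1 (chr3:41594871-41595730), a scaffold of a histone acetyltransferase complex, had MyoD folds of 40.2 and 32.5 in LncMyoD-KD and 28.4 and 39.4 in Ctrl libraries. The H3K27ac region under it ranked at or below the 14.2 percentile of constant H3K27ac regions in every library. Others of the 12 strongest were in Aida, Arhgef2, Zfp568, Rps6ka2, Mnat1, Megf10, Prrc2b and Shb.

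Genes with a member were longer than genes in general. The rule keeps only regions inside a gene body and more than 1 kb from gene ends, so longer genes have more room for a member. Whether members exceed what gene length allows was not tested. Members were assigned by position to 2215 genes, 10.2% of the 21631 protein-coding genes, and assignment says nothing of which gene a site serves. Of these genes 1421 had 1 member, 419 had 2, 278 had 3 or 4, and 97 had 5 or more, which together held 15.9% of members. The median length of the genes with a member was 75.8 kb, against 17.3 kb for all genes. Msi2, for an RNA-binding regulator of stem cells, had the most, with 15 members in 8 H3K27ac regions over 379 kb, and 5 of them lay in a single 19.1 kb region. Their mean fold enrichments ran from 5.43 to 19.8. Aopep had 12, Gse1 had 11, and the unconventional myosin gene Myo10 and Arhgap24 had 10 each. Per length, Itgb6, an integrin subunit, had 6.44 members per 100 kb, Myo10 had 5.23 and Msi2 had 3.96. The H3K27ac region with most members, 6 over 23.6 kb, spanned Gapdh and Iffo1 and reached a gene end. Others with 4 members were in Sorcs2, Lmna and Sdccag8.

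Inside their genes the members were spread over the whole length. For 2939 members of genes with a known strand, the median distance to the gene start was 39.997 kb, and 9.73% lay within 5 kb of it. With each gene divided into 3 equal lengths from its start, 34.3%, 35.2% and 30.5% of members fell in the first, middle and last. Constant H3K27ac regions without MyoD had 37.2%, 36.4% and 26.4%, and constant intragenic MyoD regions without H3K27ac had 31.7%, 30.0% and 38.3%. MyoD fold varied little along this distance, with a median of 8.84 and 8.04 (LncMyoD-KD) and 9.14 and 8.61 (Ctrl) under 5 kb and of 9.28 and 7.84 (LncMyoD-KD) and 8.92 and 8.61 (Ctrl) beyond 100 kb. At the 1 kb limit of the rule, the member in Cobl, 1015 bp from a gene end, had folds of 7.56 and 6.66 in LncMyoD-KD and 11.9 and 9.27 in Ctrl libraries. The region at Stat5a, 998 bp from a gene end and so left out, had 7.37 and 6.27 in LncMyoD-KD and 6.28 and 8.28 in Ctrl libraries.

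The share of genes with a member was higher than over all genes in most lists, and not in muscle lists alone. Among the 4222 genes with a constant H3K27ac region inside them, 2042 (48.4%) held a member. It was 79.2% (19 of 24) for excitation-contraction coupling and calcium, 78.3% (18 of 23) for the dystrophin complex and membrane repair, 75% (24 of 32) for myogenic transcription factors and cofactors, and 73.9% (17 of 23) for fusion and the neuromuscular junction. Sarcomere and cytoskeleton had 67.9% (19 of 28). Lists outside the contractile programme were high as well, with 78.1% (25 of 32) for satellite cell identity and Notch and 75.7% (28 of 37) for TGF-beta, extracellular matrix and adhesion. AP-1, Tead, Runx and nuclear factor I had 70.6% (12 of 17), and cell cycle exit and replication had 66.7% (8 of 12). Shares near that of all genes were found for IGF, insulin and growth factor signalling (52%, 13 of 25) and muscle metabolism and turnover (55.6%, 10 of 18). Housekeeping and ribosomal genes had 2 of 5. Gene length differed between lists, with medians of 5.02 kb for housekeeping genes, 23.8 kb for sarcomere genes and 69.0 kb for matrix genes, against 17.3 kb for all genes, and its part in these shares was not tested.

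**Figure D4:**
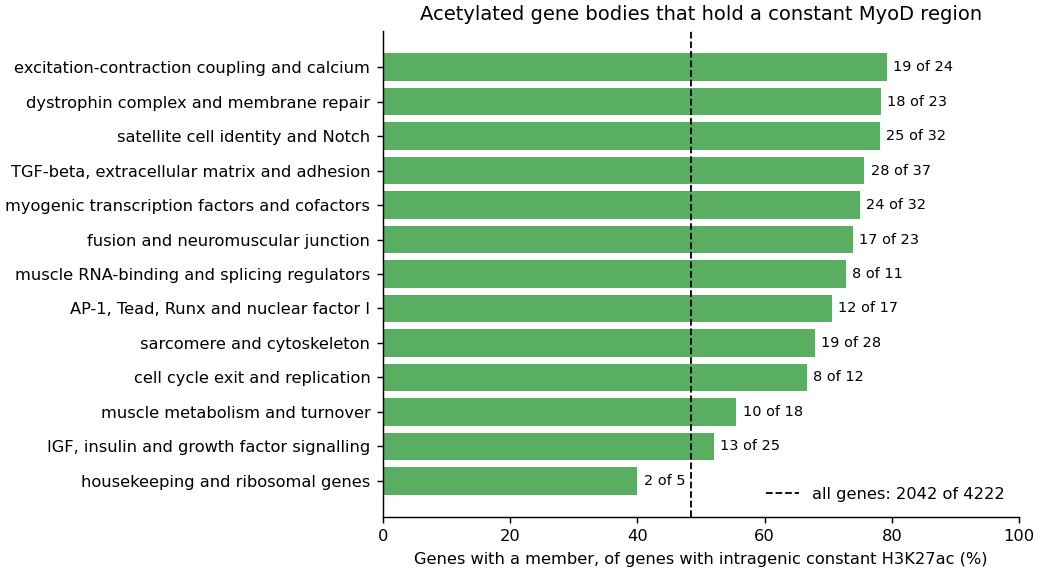
Share of genes that hold a member, in percent, among the genes of each list with a constant H3K27ac region inside them, with the counts beside each bar and the share over all genes as a dashed line. The lists of cell type markers are not drawn. All other lists but housekeeping genes (2 of 5) stand to the right of the line at 48.4%. Among them are excitation-contraction coupling (19 of 24) and, outside the muscle lists, cell cycle exit and replication (8 of 12).

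A fold belongs to its own list and LncMyoD-KD 2 had the lowest median, so the folds given for single members describe them and groups are compared by rank further on. In the contractile lists, Cap2, for an actin-turnover protein of striated muscle, had 5 members, the most in sarcomere and cytoskeleton. Its strongest (chr13:46619323-46620370) had MyoD folds of 28.7 and 24.7 in the LncMyoD-KD libraries and 27.4 and 29.1 in the Ctrl libraries. The strongest of 2 in Flnc (chr6:29438980-29439872), for the Z-disc crosslinker filamin C, had 21.4 and 24.3 in LncMyoD-KD and 24.5 and 23.5 in Ctrl libraries. These 2 members had overlapping groups by fold. Kcnn3, for a calcium-activated potassium channel, had 5, and Jph2, for junctophilin 2, which ties the T-tubule to the sarcoplasmic reticulum, had 4. In the dystrophin and membrane list, Tln2 (talin 2) had 9 members and Lmna (lamin A/C) had 4, all in a 16.3 kb H3K27ac region.

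The strongest member at a fusion gene was in Cdh15, for the muscle cadherin. That member (chr8:122850455-122851219), 2081 bp from a gene end, had MyoD folds of 40.2 and 41.1 in the LncMyoD-KD libraries, against 30.1 and 25.5 in the Ctrl libraries. Both LncMyoD-KD values stood above both Ctrl values. By rank of fold within each library, the same held for 16.4% of all constant MyoD regions. A second member in Cdh15 had 12.9 and 11.8 in LncMyoD-KD and 7.50 and 9.94 in Ctrl libraries, and both share 1 H3K27ac region. That H3K27ac region had folds of 21.7 and 22.8 in the LncMyoD-KD libraries and 20.4 and 22.5 in the Ctrl libraries, where the groups overlapped. Ncam1 had 4 members, and Tmem182, Arhgap26 and Jam3 had 3 each.

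Among regulators, members lay in genes for partners of MyoD itself. The strongest member of Tcf4, for an E-protein that dimerises with MyoD, had folds of 32.1 and 21.6 in the LncMyoD-KD libraries and 21.1 and 25.5 in the Ctrl libraries. Tead1, for a TEAD factor of the Hippo pathway, had 7 members, the strongest (chr7:112885360-112886071) with 26.8 and 37.2 in LncMyoD-KD and 27.9 and 25.8 in Ctrl libraries. The groups overlapped at both. Runx2 and Tead4 had 4 members each, as did Runx1, and Hivep2 had 6. For satellite cell identity, Met, the hepatocyte growth factor receptor, had 4, and its strongest (chr6:17515869-17516668) had folds of 32.4 and 27.8 in LncMyoD-KD and 28.8 and 35.4 in Ctrl libraries. Notch2 had 5 members, and Pax7, the satellite cell identity factor, had 2, the stronger with 7.0 and 12.1 in LncMyoD-KD and 9.22 and 10.6 in Ctrl libraries. Megf10, an engulfment receptor of satellite cells, had 2 members, with mean folds of 31.7 and 21.9.

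In signalling and matrix genes, Rptor, a subunit of the mTOR complex, and Itgb6 and Col4a2, for an integrin and a basement membrane collagen, had 8 members each. Smad3, which carries TGF-beta signals, had 7. The strongest in Itgb6 (chr2:60688729-60689395) had 32.8 and 25.9 in LncMyoD-KD and 29.7 and 26.5 in Ctrl libraries. The strongest in Igf2r (chr17:12759430-12760305), for the receptor that clears IGF2, had 23.2 and 23.1 in LncMyoD-KD and 27.4 and 24.5 in Ctrl libraries, so both LncMyoD-KD folds were the lower, while the ranks of the groups overlapped. For RNA-binding regulators, Rbm20, a splicing factor of titin, had 7 members, and Rbfox2, another splicing factor, had 6. In metabolism, Ppargc1b had 6 and Tbc1d1, which acts in glucose uptake, had 5. In cell cycle genes, Ccnd3 (cyclin D3) had 5 members with mean folds of 11.5 to 18.6, and E2f2 had 3.

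Markers of other cells held members too. All 6 satellite cell and myoblast markers with intragenic H3K27ac had a member, and so did 5 of 6 endothelial and 4 of 6 smooth muscle or pericyte markers with such H3K27ac, against 2 of 4 fibro-adipogenic and 0 of 3 Schwann or neural ones. Of the 15 immune markers none was assigned a constant H3K27ac region inside it, and 2 held a member, Cd3e and Spi1, with mean MyoD folds of 8.0 and 7.30. An H3K27ac region that reaches a gene end is not counted as inside a gene. Cd3e and Spi1 both had H3K27ac at a gene end in all 4 libraries. The member in the endothelial receptor gene Tek (chr4:94752153-94752945) had MyoD folds of 16.8 and 19.99 in LncMyoD-KD and 23.1 and 21.9 in Ctrl libraries. Both LncMyoD-KD folds were the lower, as was so by rank for 15.9% of all constant MyoD regions. Of the 15 endothelial markers, Eng and Tek alone had H3K27ac at a gene end in all 4 libraries, and Pecam1, Cdh5 and Kdr were among those without it.

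Between LncMyoD-KD and Ctrl, the members as a set kept their place among all constant regions. To compare lists, each library's fold enrichments were turned into ranks, as percentiles among the 9909 constant MyoD regions or the 26113 constant H3K27ac regions. The median MyoD rank of members was 56.0 and 56.1 in the LncMyoD-KD libraries and 55.2 and 54.2 in the Ctrl libraries, a difference of 1.42 percentile points (two-sided exact permutation test, p = 0.333, the smallest possible). Its sign did not hold: it was -2.41 without LncMyoD-KD 1, -0.0049 without Ctrl 1 and -1.13 without Ctrl 2. The median H3K27ac rank was 69.1 and 71.6 in the LncMyoD-KD libraries and 69.6 and 74.4 in the Ctrl libraries, a difference of -1.61 (exact p = 0.667), which was 1.21 without Ctrl 2.

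Single members stood apart between the groups about as often as all constant MyoD regions, a background that includes the members. Both LncMyoD-KD MyoD ranks were below both Ctrl ranks at 603 members (15.9%), where the background over all constant MyoD regions was 15.9%, and above them at 624 members (16.5%), with a background of 16.4%. Taken library by library, the median absolute difference in MyoD rank was 10.3 to 11.6 points over the 4 pairs of a LncMyoD-KD and a Ctrl library, against 11.97 points between the LncMyoD-KD libraries and 10.0 points between the Ctrl libraries. For H3K27ac, 755 members (19.9%) were lower in both LncMyoD-KD libraries, above the background of 15.9% over constant H3K27ac regions, and 555 (14.6%) were higher, below the background of 16.4%. Intragenic H3K27ac regions without MyoD had 16.1% lower and 17.5% higher, and H3K27ac regions with a constant intergenic MyoD region had 18.8% and 15.3%. The imbalance turned round without Ctrl 2, when 30.4% of members were lower and 35.2% higher, against 33.2% and 33.0% in the background. Without LncMyoD-KD 1 the values were 33.7% and 35.4%, against 32.4% and 34.4%. It was larger without LncMyoD-KD 2, at 39.6% and 24.2% against 31.4% and 30.5%, and without Ctrl 1, at 44.6% and 26.2% against 34.1% and 35.8%. All 4 pairs of shares are larger by construction, because fewer libraries must agree. With the log2 fold over the median of each library in place of the rank, 981 members (25.9%) were lower and 428 (11.3%) higher, against 17.1% and 15.05% in the background.

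**Figure D5:**
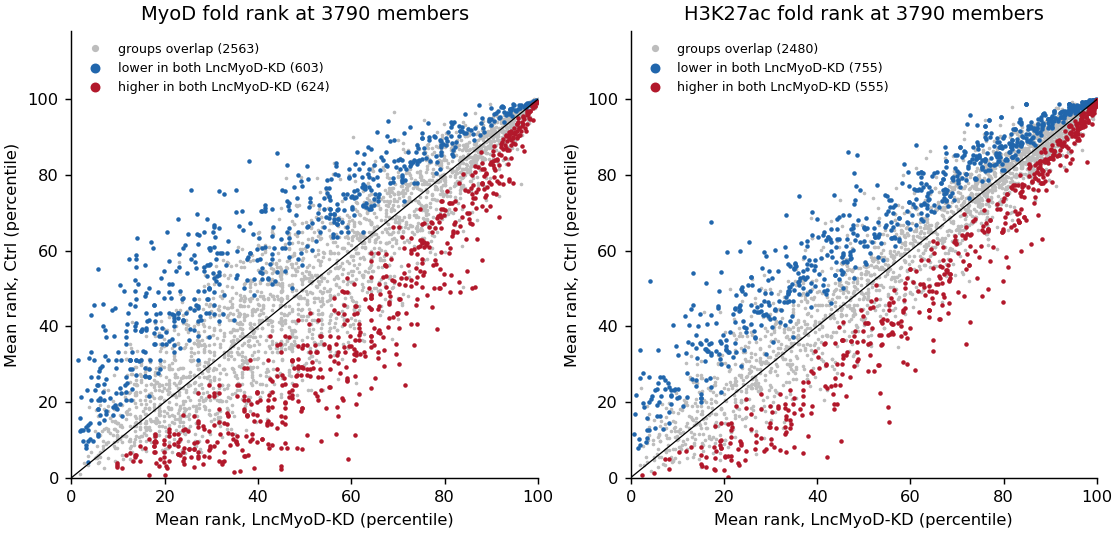
Mean rank of each of the 3790 members in the LncMyoD-KD libraries (horizontal axis, percentile) and in the Ctrl libraries (vertical axis, percentile), for MyoD on the left and H3K27ac on the right, coloured where both LncMyoD-KD ranks lie below or above both Ctrl ranks. For MyoD, 603 members are lower and 624 higher in both LncMyoD-KD libraries, and for H3K27ac 755 are lower and 555 higher.

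Lower MyoD and lower H3K27ac ranks coincided at about the rate of all members. Of the 603 members with lower MyoD rank in LncMyoD-KD, 123 (20.4%) also had lower H3K27ac rank, which is close to the 19.9% of all members. Those 123 are 16.3% of the 755 members with lower H3K27ac. Of the 624 with higher MyoD, 91 (14.6%) had higher H3K27ac, as 14.6% of all members did. Within the gene lists the counts were small, and members of a list can share a gene or an H3K27ac region. Of the 11 lists with 20 or more members, 7 had more members with lower than with higher MyoD ranks in LncMyoD-KD, 3 had more higher, and 1 had as many of each. The shares ran from 4.17% to 22.0% lower and from 7.14% to 21.6% higher, around backgrounds of 15.9% and 16.4%. For H3K27ac the lists also split into 7, 3 and 1, with 2.5% to 29.3% lower and 2.86% to 20.8% higher. Over all members these shares were 19.9% and 14.6%, an imbalance that turned round without Ctrl 2, and the backgrounds were 15.9% and 16.4%. In sarcomere and cytoskeleton, 7 of 35 members (20%, near the share of all members) had lower and 1 (2.86%) higher H3K27ac ranks. In the dystrophin complex and membrane repair 12 of 41 (29.3%) had lower and 6 (14.6%) higher. Satellite cell identity and Notch had 4 lower (8.33%) and 9 higher (18.75%) of 48, and muscle RNA-binding and splicing regulators 1 lower (2.5%) and 5 higher (12.5%) of 40.

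The largest MyoD differences, named by size among members whose groups did not overlap, were in genes of varied function, and their direction was fixed by that choice. In Atp6v1a (chr16:44110135-44110659), a subunit of the proton pump of lysosomes, the fold was 6.63 and 6.04 in LncMyoD-KD and 11.9 and 11.9 in Ctrl libraries, and the mean rank was lower by 50.6 points. The H3K27ac ranks of its region were 51.8 and 63.3 in LncMyoD-KD, below 67.3 and 69.8 in Ctrl libraries. In Rapgef1, a guanine nucleotide exchange factor, the folds were 5.17 and 3.75 in LncMyoD-KD and 8.54 and 9.94 in Ctrl libraries. Cxxc5, Tns3, Fpgs and Cyria followed, and the Tns3 difference of -45.7 points was -16.8 without LncMyoD-KD 1. On the higher side, the member in Dst, for a cytoskeletal linker, had 7.74 and 7.84 in LncMyoD-KD and 4.30 and 4.31 in Ctrl libraries. The member in Akt2 (chr7:27597136-27597566), a kinase of insulin signalling, had 8.47 and 8.62 in LncMyoD-KD and 5.95 and 4.63 in Ctrl libraries. Ust, Exoc3l, Adk and a weaker member of Col4a2 were the others, and the Col4a2 difference of 45.3 points was 24.9 without LncMyoD-KD 1. All 12 had mean MyoD ranks of 23.7 to 60.95.

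The H3K27ac differences were as scattered. The region under the member in Grik1, a glutamate receptor gene, had H3K27ac folds of 5.64 and 4.39 in LncMyoD-KD, against 8.74 and 10.9 in Ctrl libraries, while the MyoD folds of the member overlapped at 11.1 and 12.9 in LncMyoD-KD and 11.6 and 10.6 in Ctrl libraries. In Ctbp2, for a transcriptional corepressor, the H3K27ac folds were 5.13 and 7.45 in LncMyoD-KD and 9.85 and 12.4 in Ctrl libraries. Its MyoD folds were 15.1 and 19.2 in LncMyoD-KD and 17.5 and 22.5 in Ctrl libraries, which overlapped. Cracr2a, Sorcs2, Cdip1 and Srbd1 were the others on the lower side. Leaving out a single library cut several of these differences by more than 1.5 times: Cdip1 was -39.4 points and -13.2 without LncMyoD-KD 2, Srbd1 was -39.2 and -20.1 without the same library, and Ctbp2 was -38.3 and -18.6 without LncMyoD-KD 1. In Pola2, for a DNA polymerase alpha subunit, H3K27ac folds were 7.82 and 8.54 in LncMyoD-KD and 4.46 and 4.62 in Ctrl libraries, and in Maml3, a Notch coactivator gene, they were 11.6 and 9.56 in LncMyoD-KD and 7.44 and 5.06 in Ctrl libraries. Maml3 was 36.7 points higher, and 18.5 without Ctrl 2. Man1c1, Tbc1d8, Dip2b and Bicral completed the higher side.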

How the data were processed

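The authors deposited 1 peak list for each of the 8 ChIP libraries, each called separately. Per the submitters' processing notes, peaks were made on mm10 with MACS2 2.1.1, after Bowtie2 2.3.2; SAMtools 1.3, bedtools 2.26.0 and Picard 2.9.2 are named as well. No options, and no pairing of inputs with libraries, are given in the sources. A deposited peak has a fold enrichment (a linear ratio), a −log10 p-value, a −log10 q-value, a whole-number score and a summit position, all from the authors' caller. The score was not used. A longer list at greater depth can add weak peaks, so libraries were compared by rank among the same regions.

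Peaks were merged at a gap of 0 bp with Python 3.11.15, pandas 2.3.3, numpy 2.4.6 and SciPy 1.17.1, and the steps were tested on simulated data. Gene bodies came from RefSeq (GRCm38.p6, the assembly of mm10), and strand from its promoter windows. Of several overlapped genes, that with the nearest end was taken. Differences were tested over libraries by exact permutation, since regions are not replicates; no test could reach 0.05. The genes named are the 12 with most members, the 12 strongest members, the 6 H3K27ac regions with most members, up to 5 genes per list by number of members, and the 6 members with the largest rank difference each way whose groups did not overlap; a region that this rule names is not reported here. The members and 19 gene lists were chosen with earlier results of these data known. Of 659 list symbols, 658 matched. The alternatives were other merge gaps, peak cuts, overlaps, gene-end limits, measures and libraries left out.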

Additional observations from a re-analysis of the deposited data

How the results depend on the processing

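Of the members' headline values, the share of constant intragenic MyoD regions in acetylated chromatin, 78.1%, was 72.2% with peaks at a −log10 q of at least 5, 79.2% with equal numbers of peaks per library, 75.1% when 50% of the region had to be covered, and 76.2% to 83.5% with each library left out. The MyoD rank difference of members, 1.42 points, was -0.29 by rank of −log10 p and ranged from -2.41 to 2.52 with each library left out (-0.0049 without the MyoD library Ctrl 1); that of H3K27ac, -1.61, ranged from -3.99 to 1.21. The summit distance of 311 bp was 331 bp to the strongest H3K27ac peak and 304 to 312 bp with each library left out, and its difference between groups ranged from -2.50 to 6.25 bp, with 0 without the H3K27ac library Ctrl 1. With each library left out, lower and higher MyoD counts ranged from 1186 to 1497 and from 1212 to 1535, and H3K27ac counts from 1155 to 1699 and from 982 to 1340, larger by construction since fewer libraries must agree. The cause of the other shifts was not tested. Paired by replicate number (replicate block), the differences were 1.42 and -1.61 (exact sign permutation, p = 0.5, the smallest that 2 pairs allow). The labels do not tie the numbers, and over members the difference between replicates 1 and 2 in LncMyoD-KD and in Ctrl correlated at r = 0.085 for MyoD and 0.086 for H3K27ac. The comparisons of MyoD fold and of H3K27ac fold between sets of regions kept their direction under every alternative run for them. The number of members ranged from 2864 to 4436. E-boxes at all member summits, planned with 2 alternative windows, were not searched, for want of a genome sequence here. Unknown depth limits every statement on what a list lacks.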
